A study of Mus musculus with 18 samples.

Results

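The circadian clock was followed through 10 of its genes, Per1, Per2, Per3, Cry1, Cry2, Arntl, Clock, Nr1d1, Dbp and Ciart, out of 23238 distinct gene symbols counted in mouse hippocampus and cortex. The genes were chosen by name, as members of the clock, with earlier results of these data known. Each symbol had 1 row in each of the 18 count files, and all 10 passed the filter on low counts in every comparison below. Male C57BL/6 mice, 7 weeks old when dosing began, received PBS vehicle or urban particulate matter (UPM, a certified reference dust) through the nose. Dosing was daily for 3, 5 or 7 days in the short-term groups and 2 times a week for 3, 8, 12, 16 or 20 weeks in the long-term groups. Each library came from pooled RNA of 1 group of mice. Per tissue there were 1 vehicle control, 3 short-term and 5 long-term libraries, with 1 library for each exposure time. The number of mice per pool, the age of the control mice at collection and the hour of tissue collection are not given in the sources used here.

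The clock is a transcriptional feedback loop present in most cells. The proteins of Arntl (BMAL1) and Clock pair and bind E-box sequences, which switch on the Per and Cry genes, whose proteins return to repress the pair. Nr1d1 (REV-ERB alpha) is switched on through the same E-boxes and represses Arntl. Dbp, a PAR bZIP factor acting through D-box sequences, and Ciart (CHRONO), a repressor of the loop, are further E-box targets. In rodent tissues Nr1d1, Dbp and Per transcripts crest between midday and the early night, and Arntl transcripts crest on the opposite side of the day. Levels of these genes in a pool of tissue therefore depend on the hour of collection, and, in bulk RNA, fewer cells of a type and less RNA per cell cannot be told apart.

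The libraries fell into sets that the labels do not name. The count files of 3, 5 and 7 days and 3 weeks (8 libraries, here called the early set) have sample headers in one naming style, and those of control and 8 to 20 weeks (10 libraries, the control and late set) in another, with control and 8 weeks sharing a header number. Whether the sets were prepared or sequenced apart is not given in the sources used here. Exposed mice of the sets also differed in age at collection, since dosing began at 7 weeks of age. Daily dosing occurred in the early set only. Among exposed mice, age cannot be told apart from the set, nor dosing schedule except through the 3-week libraries. Total counts were 5434067 to 8967430 per library, so 1 count was worth 0.112 to 0.184 CPM (counts scaled to 1000000 per library). The ribosomal transcript Rn45s took 14.83 to 18.61% of all counts in early libraries, against 7.75 to 12.88% in the others. Markers of hippocampal neurons were higher in hippocampus for 6 of 6 genes (331 to 816 CPM summed, against 120 to 255 CPM in cortex). Markers of cortical neurons were lower there for 5 of 6 (288 to 515 against 549 to 764 CPM). Since no time was replicated, libraries of other times stood in for replicates, and a p-value here speaks of the scatter among these pools alone.

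Promoter sequence was available for 9 of the 10 genes (RefSeq, GRCm38.p6, 13 start-site windows of 300 bases, 250 before and 50 after the start), and Per2 is named only. The first 4 windows below belong to genes with a called difference between library sets or tissues, and that of Arntl is shown beside them as the window of a gene of the opposite phase. Capitals mark a match on either strand to the E-box CACGTG, the E'-box CACGTT, the D-box TTATGTAA or TTACGTAA, or the ROR element, which is the site of REV-ERB and ROR receptors.
Per1 (chr11:69098699-69098998, plus strand): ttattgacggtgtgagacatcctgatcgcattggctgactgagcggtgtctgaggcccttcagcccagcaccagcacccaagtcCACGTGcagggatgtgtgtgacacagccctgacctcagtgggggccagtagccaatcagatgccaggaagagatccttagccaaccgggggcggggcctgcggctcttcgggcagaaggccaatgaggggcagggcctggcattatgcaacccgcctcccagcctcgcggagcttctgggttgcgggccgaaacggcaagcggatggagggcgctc
Per3 (chr4:151044616-151044915, minus strand): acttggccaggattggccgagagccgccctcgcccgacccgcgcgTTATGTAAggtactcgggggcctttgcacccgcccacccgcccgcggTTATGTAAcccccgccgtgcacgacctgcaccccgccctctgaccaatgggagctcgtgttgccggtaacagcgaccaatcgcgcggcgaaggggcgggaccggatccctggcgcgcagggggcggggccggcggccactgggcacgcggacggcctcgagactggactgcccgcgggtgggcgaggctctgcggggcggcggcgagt
Nr1d1 (chr11:98775328-98775627, minus strand): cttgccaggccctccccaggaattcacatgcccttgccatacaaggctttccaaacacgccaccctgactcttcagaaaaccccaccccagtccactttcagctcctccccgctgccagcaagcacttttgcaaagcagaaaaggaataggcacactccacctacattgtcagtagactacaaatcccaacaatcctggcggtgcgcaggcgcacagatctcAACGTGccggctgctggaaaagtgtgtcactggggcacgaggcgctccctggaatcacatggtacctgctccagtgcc
Dbp (chr7:45704997-45705296, plus strand): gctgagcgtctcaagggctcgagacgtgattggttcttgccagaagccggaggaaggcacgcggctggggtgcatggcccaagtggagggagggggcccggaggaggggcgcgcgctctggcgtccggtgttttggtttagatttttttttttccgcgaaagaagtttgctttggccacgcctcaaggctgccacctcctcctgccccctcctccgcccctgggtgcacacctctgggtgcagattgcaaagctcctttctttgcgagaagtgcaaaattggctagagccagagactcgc
Arntl (chr7:113207261-113207560, plus strand): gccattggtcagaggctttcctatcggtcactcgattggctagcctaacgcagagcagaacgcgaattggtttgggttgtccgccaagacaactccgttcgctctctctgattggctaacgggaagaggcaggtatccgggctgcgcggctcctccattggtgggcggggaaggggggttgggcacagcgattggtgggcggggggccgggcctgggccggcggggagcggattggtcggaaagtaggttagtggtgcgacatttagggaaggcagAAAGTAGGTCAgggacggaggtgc
The printed Per1 window held 1 E-box, the Nr1d1 window 1 E'-box, the Per3 window 2 D-boxes and the printed Arntl window 1 ROR element 27 bases past the start, while the Dbp window held none of these letters. Per1 and Arntl each have a second window, not printed, with no match, and the 3 windows of Clock held none. Outside the printed windows, Ciart held 3 E-boxes, Cry1 an E-box and an E'-box, and Cry2 an E'-box. Across 32851 mouse promoter windows of the same length, an E-box was present in 7.15%, an E'-box in 4.68%, a D-box in 1.06% and a ROR element in 0.384%. The cAMP response element TGACGTCA, present in 1.79% of windows, was found in no window of the 9 genes. A match describes the sequence only and shows no binding.

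Over both tissues together, the Period genes, whose proteins form the negative limb of the loop, were lower in the early set. Per3 (chr4:151003652-151044665, minus strand, GRCm38) read 15.8 CPM in hippocampus of control mice, 14.6, 6.06 and 10 at 3, 5 and 7 days, 8.24 at 3 weeks, and 21.4, 20, 22.1 and 13.8 at 8, 12, 16 and 20 weeks. In cortex the same order of times gave 24.1, then 11.2, 12.2, 8.5 and 9.66, then 21.5, 19, 22.2 and 27.1 CPM. The early cortex libraries all lay below the others, while in hippocampus the 3-day library overlapped the 20-week one. Per3 was, with Ciart, Arntl and Cry1, among the members with the fewest counts. With tissue as a covariate, Per3 was 2.05-fold lower in the early set (log2 fold change -1.03 ± 0.15 SE, adjusted p = 5.43e-06, 8 against 10 libraries). The fit had no term for exposure time, so both tissues of a time counted as independent, though they may come from the same mice. Per3 lies wholly within Camta1 on the same strand (41014 shared bases), where strand cannot separate reads, and Camta1 itself gave -0.17 ± 0.09 (adjusted p = 0.162). This comparison of sets was added after the data had been examined. It called 39.6% of all genes tested, 19.2% lower and 20.4% higher, against 3 of the 10 clock genes, all lower. The share of members called was thus below that of all genes, though the share called lower was above the 19.2%.

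The other members called were Per2 and Per1, whose products act with the cryptochromes and, for Per1, also respond to acute stimuli. Per2 (chr1:91415982-91459324, minus strand) read 43.1 CPM in control cortex, 18.7, 17.2, 20.5 and 18.9 from 3 days to 3 weeks, and 28.9, 26.5, 32.6 and 41.4 from 8 to 20 weeks, with no overlap of the sets. Hippocampal Per2 was 27.7 CPM in control, 28.9, 14, 23.3 and 31.3 from 3 days to 3 weeks, and 27.7, 27.3, 33.2 and 33.2 afterwards, and here the sets overlapped. Over both tissues Per2 was 1.49-fold lower in the early set (-0.57 ± 0.14, adjusted p = 0.00234). The estimate was -0.87 ± 0.18 in cortex (adjusted p = 0.00119) and -0.28 ± 0.18 in hippocampus (adjusted p = 0.277), where it was not called. Per1 (chr11:69095217-69109960, plus strand) read 52.8 CPM in control cortex, 27.6, 24.1, 28.9 and 35.3 in the early set, and 42, 42.9, 32.3 and 30.6 from 8 to 20 weeks. In hippocampus it read 30.3 CPM in control, 19.1, 33.3, 19 and 27.2 in the early set and 32.8, 31.9, 34.2 and 25.2 later, and the sets overlapped in both tissues. Its difference over both tissues was 1.32-fold (-0.40 ± 0.13, adjusted p = 0.014). Within hippocampus it was -0.32 ± 0.18 (adjusted p = 0.204) and was not called.

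**Figure D1:**
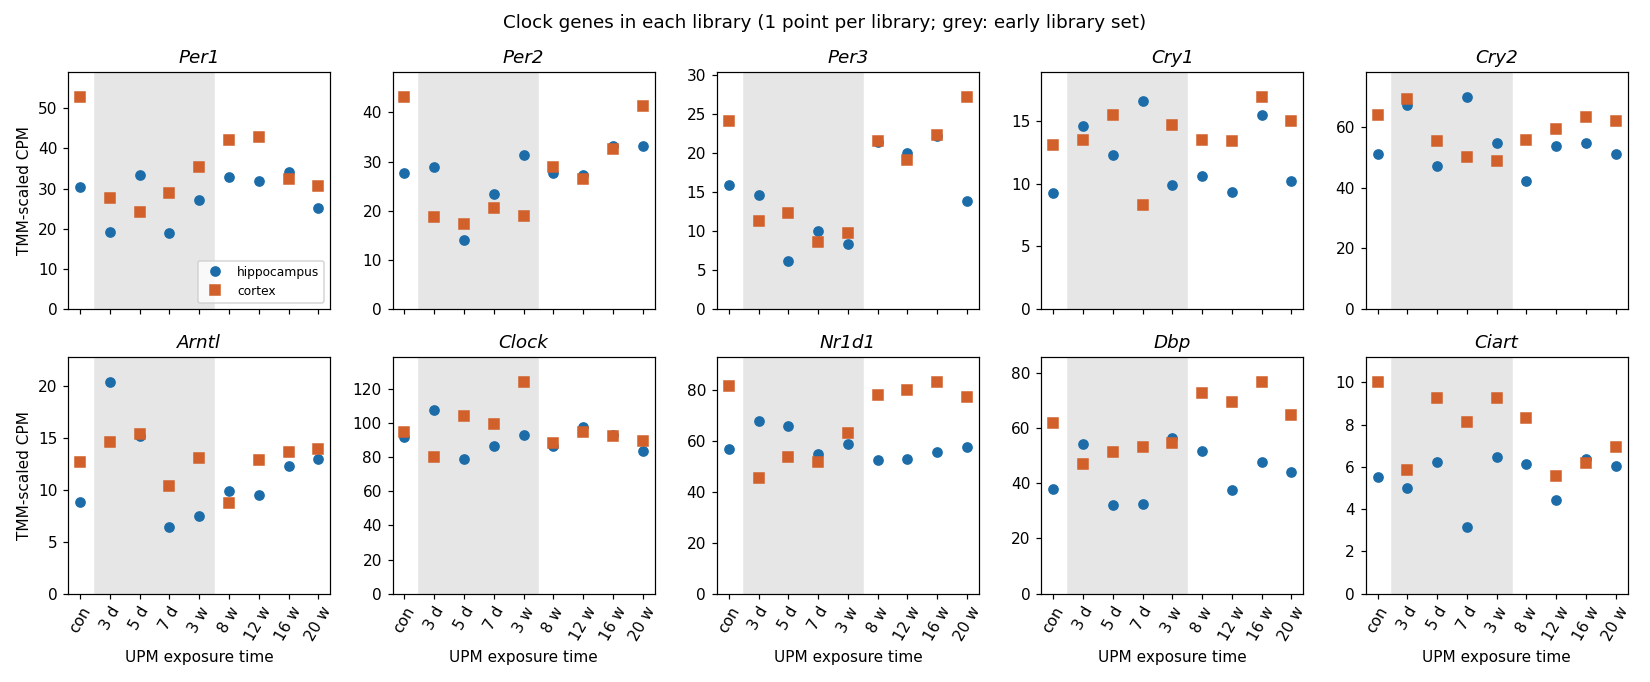
TMM-scaled CPM of the 10 clock genes in each library (vertical axes, starting at 0, 1 point per library) against exposure time (horizontal axes), for hippocampus (circles) and cortex (squares), with the early set on grey. Per3 in cortex lies between 8.5 and 12.2 on grey and between 19 and 27.1 elsewhere, and cortical Nr1d1 between 45.2 and 62.9 on grey and between 77 and 82.9 elsewhere.

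The members outside the Period family did not pass the test between sets over both tissues. Nr1d1 gave -0.20 ± 0.10 (adjusted p = 0.126) and Dbp -0.21 ± 0.11 (adjusted p = 0.15), and the other 5 genes lay between 0.01 and 0.15 on the log2 scale, with adjusted p of 0.394 to 0.968. The median of the 10 members was -0.10, beside -0.00 for all genes tested. Scaling by total counts alone, which moved the median of all genes to -0.19, called 5 members lower, the added genes being Dbp and Nr1d1 (both -0.40), and turned the balance over all genes from 2828 higher and 2658 lower to 1349 higher and 4567 lower. Leaving out both control libraries left 3 members called, and leaving out both 3-week libraries 4, with Dbp at -0.30 (adjusted p = 0.0418). Without any single library Per3 lay between -1.15 and -0.97, Per2 between -0.67 and -0.51 and Per1 between -0.48 and -0.34, and Dbp was called as well without the 3-week (-0.30, adjusted p = 0.0311) or the 3-day library of hippocampus (-0.28, adjusted p = 0.0455).

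Estimates for each tissue came from a fit over all 18 libraries, with tissue, set and their interaction as terms. For cortex, 26.6% of all genes were called (12.4% lower and 14.2% higher). Of the 10 clock genes, 4 were lower in the early cortex libraries and none higher. They were Per3 (2.19-fold, -1.13 ± 0.20, adjusted p = 0.00027), Per2 (1.83-fold, -0.87 ± 0.18, adjusted p = 0.00119), Nr1d1 and Dbp, the last of which was lost without any 1 exposed cortex library. Those same 4 genes were the members whose early cortex libraries all lay under every control and late library, a pattern that 12.2% of genes showed, beside 12.6% with the early libraries all above. Cortical Per1 missed the threshold at -0.47 ± 0.18 (adjusted p = 0.0537), and it passed with DESeq2 (adjusted p = 0.0341), RLE size factors (0.048), total counts (0.0117) or a mean of at least 50 counts (0.0403), and without the 3, 16 or 20-week library of cortex or the 3, 5 or 7-day library of hippocampus (0.0298 to 0.046). Within hippocampus 1 of 10 was called, Per3 at -0.93 ± 0.21 (1.91-fold, adjusted p = 0.00224; -1.19 to -0.77 without any single library), where 24.8% of all genes were called (11.9% lower and 12.9% higher). No member's hippocampal sets were free of overlap, beside 10.3% of genes lower and 10.7% higher without overlap.

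**Figure D2:**
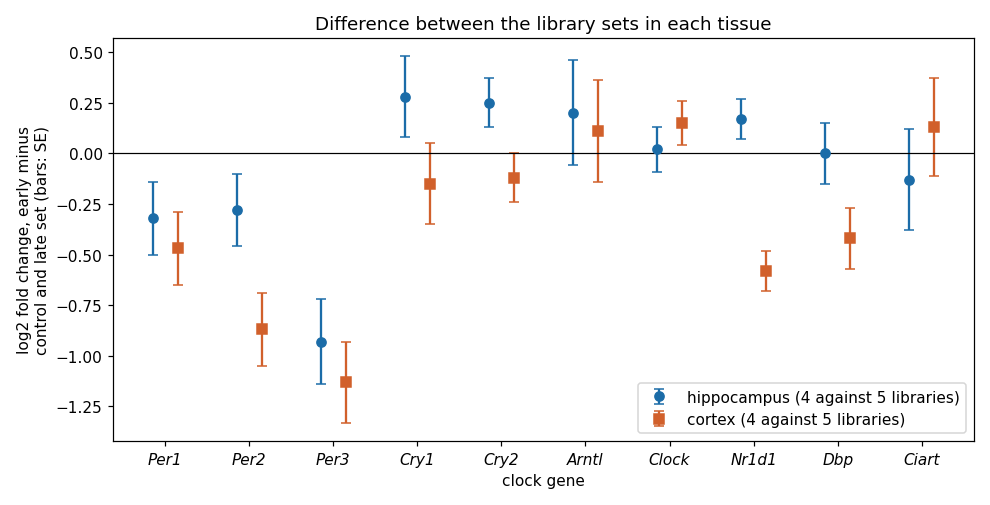
Log2 fold change of each clock gene, early set minus control and late set, in hippocampus (circles) and cortex (squares), 4 against 5 libraries each, with bars of 1 SE. Per3 lies at -0.93 in hippocampus and -1.13 in cortex, while Nr1d1 lies at 0.17 in hippocampus and -0.58 in cortex.

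Nr1d1 (chr11:98767932-98775333, minus strand), the repressor of Arntl, had the largest estimate among the 10 members for a set difference that depended on tissue. In cortex it read 81.4 CPM in control, 45.2, 53.6, 51.5 and 62.9 from 3 days to 3 weeks, and 77.8, 79.8, 82.9 and 77 from 8 to 20 weeks. The hippocampal values were 56.7 CPM in control, 67.9, 65.9, 54.6 and 58.7 in the early set, and 52.6, 52.8, 55.4 and 57.5 later. The 5 control and late libraries were close together in each tissue, at 79.8 ± 2.44 CPM in cortex and 55 ± 2.25 CPM in hippocampus (SD, n = 5), and the early ones were more spread (53.3 ± 7.3 and 61.8 ± 6.24, n = 4). Between sets, Nr1d1 was 1.5-fold lower in early cortex (-0.58 ± 0.10, adjusted p = 0.000121), and its hippocampal difference was 0.17 ± 0.10 (adjusted p = 0.217).

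The test of whether the tissue difference itself depended on the set gave no call among 14249 genes with edgeR (0%), with 1495 genes at an unadjusted p under 0.05 and 103 called by DESeq2. Of the 10 members, 3 were at an unadjusted p under 0.05 in edgeR's fit. Nr1d1 ranked 2 by p among all genes and was 1 of 4 that shared the smallest adjusted p, 0.0639, for a difference of 0.75 ± 0.14. DESeq2 called it (adjusted p = 0.000899), and so did edgeR without the cortical 3-week library (0.84, adjusted p = 0.0388) or without the hippocampal one (0.77, adjusted p = 0.039). Per2 followed at 0.59 ± 0.26 (adjusted p = 0.423) and Cry2 at 0.37 ± 0.18 (adjusted p = 0.466). Thra, which is transcribed towards Nr1d1 and shares 1075 bases with its 3' end, read 88.9 to 142 CPM in early cortex and 115 to 131 CPM in the rest, and its own interaction was 0.05 ± 0.17. The strand setting of the authors' counting is not given in the sources used here, so reads of the shared stretch cannot be assigned between the 2 genes.

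Dbp (chr7:45705088-45710203, plus strand), the output factor, was lower in early cortex as well. It read 61.6 CPM in control cortex, 47, 51.2, 53.2 and 54.7 in the early set and 72.6, 69.2, 76.5 and 64.6 later, which was a 1.34-fold difference (-0.42 ± 0.15, adjusted p = 0.0419). That call was lost without any 1 of the 8 exposed cortex libraries (-0.45 to -0.38, adjusted p = 0.0522 to 0.103). In hippocampus the readings were 38 CPM in control, 54.2, 32.2, 32.3 and 56.5 in the early set, and 51.8, 37.6, 47.7 and 44 later, a difference of 0.00 ± 0.15. The 3-day and 3-week hippocampal libraries were the 2 highest of the 9, and those of 5 and 7 days the 2 lowest.

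Dbp shares 737 bases at its 3' end (chr7:45709467-45710203) with Sphk2, a sphingosine kinase gene on the other strand, and the 3'-end libraries read that part of a gene. Among 9121 other genes with a mean of at least 10 CPM, Sphk2 was also the gene most like Dbp, with Pearson r = 0.85 over 18 libraries centred within tissue and set. Sphk2 read 71.2 to 74.6 CPM in early cortex against 82.6 to 95.6 CPM in the rest (-0.29 ± 0.11, adjusted p = 0.0541), and 53.2 to 88.4 against 58.9 to 69.9 CPM in hippocampus. How far reads of one gene were counted for the other was not tested. The next genes were Prrc1 (0.84), Ctgf (0.83), Chrna4 and Plxdc1 (both 0.82), and among the lowest were Numbl (-0.94), Fkbp1a (-0.87), Cap1 (-0.85) and Ldoc1l (-0.84). No other clock gene was near the top, with Hlf at 0.56, Per2 at 0.48, Nr1d1 at 0.23 and Arntl at 0.15. All these r describe points that share library and depth.

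**Figure D3:**
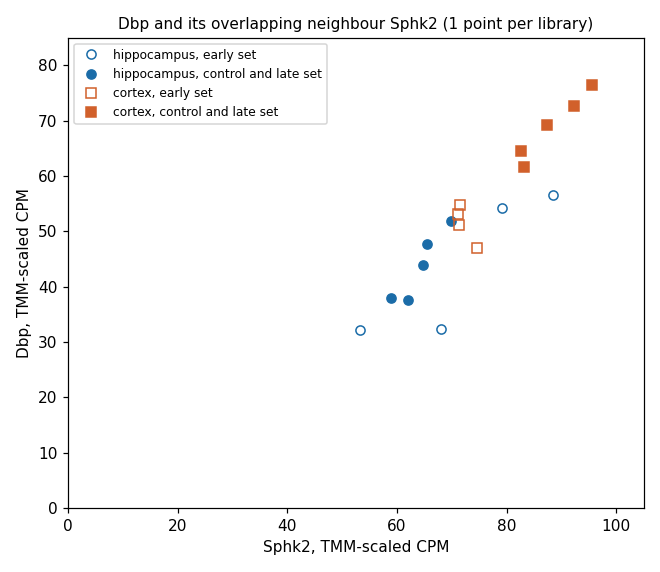
Dbp (vertical axis) against its overlapping neighbour Sphk2 (horizontal axis), both in TMM-scaled CPM, 1 point per library, with open points for the early set and filled points for the control and late set. Cortical libraries (squares) with Dbp at 47 to 54.7 have Sphk2 at 71.2 to 74.6, and those with Dbp at 61.6 to 76.5 have Sphk2 at 82.6 to 95.6.

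Of the positive limb, Arntl and Clock showed no called difference between sets. Arntl (chr7:113207465-113314126, plus strand) had low counts, 43 to 122 per library. In hippocampus it read 8.89 CPM in control, 20.4, 15.2, 6.43 and 7.5 from 3 days to 3 weeks, and 9.93, 9.48, 12.3 and 13 later. In cortex it read 12.7 CPM, then 14.6, 15.4, 10.4 and 13.1, then 8.74, 12.9, 13.7 and 14. The hippocampal libraries of 3 and 5 days were the highest of that tissue and those of 7 days and 3 weeks the lowest, and in cortex 5 and 3 days were again highest. The difference between times within the early set did not pass (unadjusted p = 0.053, adjusted p = 0.783, edgeR). Nr1d1, its repressor, had r = 0.51 with Arntl, and Nr1d2, the paralogue of Nr1d1, had r = -0.39. The genes most like Arntl were Pgd (0.90), Lsm14a (0.87), Ptpn2 and Ifnar2 (both 0.86) and Zfp317 (0.85). Clock (chr5:76209868-76304792, minus strand), the partner of Arntl, lay between 79 and 108 CPM in hippocampus and between 80.3 and 124 CPM in cortex. It gave 0.09 ± 0.08 between sets (adjusted p = 0.394).

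The cryptochromes, which repress Arntl and Clock most directly, and Ciart were not called between sets either. Cry1 (chr10:85131700-85185064, minus strand) ranged from 9.24 to 16.6 CPM in hippocampus and from 8.25 to 16.9 CPM in cortex. Cry2 (chr2:92403646-92434043, minus strand) ranged from 42 to 69.8 CPM in hippocampus and from 48.6 to 69.2 CPM in cortex, with a set difference of 0.25 ± 0.12 in the first and -0.12 ± 0.12 in the second. Ciart (chr3:95878503-95882251, minus strand) had 21 to 79 counts, which were 3.14 to 6.47 CPM in hippocampus and 5.58 to 10 CPM in cortex. It lies wholly within the antisense gene C920021L13Rik, and Cry2 shares 23417 bases with D930015M05Rik on the other strand, so how reads were divided there is as uncertain as for Dbp.

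Other gene lists were compared between the sets beside the clock genes, with 39.6% of all genes called (20.4% higher, 19.2% lower), and their part in these differences was not tested. Of 7 long non-coding RNAs tested, among them Meg3 and Malat1, 6 were lower in the early set (median -2.42), and their summed level was 3800 to 5170 CPM in early hippocampus against 24700 to 27600 CPM, and 3290 to 7070 against 14400 to 27600 CPM in cortex. Blood markers were higher for 4 of 5 genes (median 0.90), with sums of 872 to 1680 against 635 to 1190 CPM in hippocampus and 1030 to 2790 against 624 to 1050 CPM in cortex. Of 9 temperature-responsive genes 3 were higher and 0 lower, with a list median of 0.03. That share was below the 39.6% of all genes called in either direction and above the 20.4% called higher. Their summed level was 2250 to 2420 against 1720 to 2130 CPM in hippocampus and 2420 to 3140 against 1920 to 2040 CPM in cortex. A sum follows its most abundant genes, and 5 of the 9 genes had a positive log2 fold change over both tissues. Of 10 glucocorticoid response genes, a class to which Per1 itself belongs in many tissues, 2 were higher, and of 14 immediate early genes 1 was lower, both shares also below that of all genes. Among markers of neighbouring regions, 1 of 5 for striatum and 2 of 6 for thalamus and habenula were lower. For choroid plexus 1 of 6 was higher, and 0 of 3 for hypothalamus were called by edgeR, with 0 at an unadjusted p under 0.05. Single libraries of a set differed widely in such markers. Choroid plexus sums ran from 34.5 to 6850 CPM in early hippocampus and 38.4 to 4670 CPM in the rest. In cortex they ran from 15.4 to 4160 CPM and 27.5 to 1130 CPM. Striatum sums in cortex were 184 to 1080 CPM in the early set and 174 to 879 CPM in the rest. How far this bears on clock values of single libraries was not tested.

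The study's own contrast, UPM against vehicle, could be made within 1 set for 8 to 20 weeks only. There, 8 exposed libraries against 2 controls gave no called gene among 14465 with edgeR (0%), with 676 at an unadjusted p under 0.05 and none by DESeq2, and 0 of 10 clock genes at either level. The smallest p among the members belonged to Dbp (0.23 ± 0.11, unadjusted p = 0.06), followed by Per1 (-0.25 ± 0.16, unadjusted p = 0.137). Across the 4 late times and control, 0 of 10 members differed between times by edgeR or DESeq2 or at an unadjusted p under 0.05, where edgeR called 0.131% of genes. Across the 4 times of the early set the count was again 0 of 10 by both tools and at an unadjusted p under 0.05, where 0.0499% of genes were called. The 3-week libraries against those of 3 to 7 days gave no called gene in edgeR (0%), with 606 at an unadjusted p under 0.05 and 8 by DESeq2, none of these being members.

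Comparisons that cross the sets carried the Period difference with them. Between any of the 9 times, Per3 alone of the 10 members was called (adjusted p = 0.0101), where 15.7% of genes were, with Per2 at adjusted p = 0.0548 and Per1 at 0.137. Leaving out single libraries moved Per2 past the threshold for 5 of them (control, 3 days and 3 weeks of hippocampus, 3 days and 3 weeks of cortex, adjusted p = 0.0268 to 0.0441), and Per1 when either 5-day library was left out (0.027 without the hippocampal, 0.0448 without the cortical). Long-term libraries were higher than short-term ones for Per3 (0.83 ± 0.23, adjusted p = 0.0211), Per2 (0.56 ± 0.16, adjusted p = 0.0248) and Per1 (0.40 ± 0.13, adjusted p = 0.0458), 3 of 10 where 16.7% of genes were called, 9.05% higher and 7.62% lower. Per1 missed the threshold when any 8, 12 or 16-week library, any 3 or 7-day library or the 5-day cortex library was left out (adjusted p = 0.0526 to 0.109), and Per2 without the 5-day library of cortex (0.0638) or of hippocampus (0.059). Dbp (0.34 ± 0.12, adjusted p = 0.0559) passed without the 3-week cortex (0.0263), 12-week hippocampus (0.0429) or 3-day hippocampus library (0.00975). With the set as a term none of the 10 was called, and the values were 0.30 for Per1, 0.29 for Per2 and -0.22 for Per3, with 1 gene called in all.

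Short-term exposure against control, 6 against 2 libraries, crossed the sets entirely. It gave 0 of 10 members with edgeR, where 1.94% of genes were called (1.62% lower and 0.316% higher), 3 members at an unadjusted p under 0.05, and 2 with DESeq2. Those 3 were Per1 (-0.69 ± 0.20, adjusted p = 0.0689), Per2 (-0.80 ± 0.24, adjusted p = 0.0771) and Per3 (-0.92 ± 0.34, adjusted p = 0.126). Per1 passed without the 3-week library of cortex (adjusted p = 0.0408), the 3-week library of hippocampus (0.0495) or the 5-day library of hippocampus (0.0445), and Per2 without the 3-week library of cortex (0.0306) or the 3-day library of hippocampus (0.0491). Both sizes moved with the control left out. Without the cortex control Per1 was -0.39 (adjusted p = 0.655) and Per2 -0.39 (adjusted p = 0.7), with 0 members at an unadjusted p under 0.05 or called by edgeR, and without the hippocampus control they were -0.95 and -1.14 (both adjusted p = 0.238). Long-term exposure against control gave no called gene with edgeR or DESeq2 (0%), 185 genes at an unadjusted p under 0.05 with edgeR, and 0 of 10 members at either level. Short-term exposure and library set cannot be told apart for the Period genes against control. The short-term and long-term comparisons also share their control libraries.

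Between the tissues, Dbp was the member called over all 18 libraries, 1.41-fold lower in hippocampus (-0.49 ± 0.11, adjusted p = 0.00346), 1 of 10 where 16.9% of genes were called (9.26% lower and 7.6% higher). Ciart (-0.49 ± 0.18, adjusted p = 0.0692) and Per1 (-0.32 ± 0.11, adjusted p = 0.0705) came next, and 9 of the 10 values were negative (median -0.22, beside -0.00 for all genes). Per1 passed without the 5-day library of hippocampus (-0.41, adjusted p = 0.00954) or of cortex (-0.41, adjusted p = 0.00929).

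The 10 libraries of the control and late set, taken alone, showed 5 of 10 members lower in hippocampus and none higher, where 20.1% of genes were called (10.9% lower and 9.26% higher). They were Dbp (1.58-fold, -0.66 ± 0.08, adjusted p = 0.000157), Nr1d1 (1.45-fold, -0.54 ± 0.07, adjusted p = 0.000231), Cry2 (-0.28 ± 0.08, adjusted p = 0.0227), Cry1 (-0.41 ± 0.13, adjusted p = 0.0404) and Per1 (-0.36 ± 0.11, adjusted p = 0.0429). Dbp in that set read 61.6 to 76.5 CPM in cortex and 37.6 to 51.8 CPM in hippocampus. Nr1d1 read 77 to 82.9 CPM in cortex and 52.6 to 57.5 CPM in hippocampus. The share of all genes with the tissues separated in this way was not counted. In the early set alone 0 of 10 were called by edgeR and 0 were at an unadjusted p under 0.05, where 4.67% of genes were called (2.27% lower and 2.4% higher), and Dbp stood at -0.26 ± 0.18 and Nr1d1 at 0.23 ± 0.15.

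**Figure D4:**
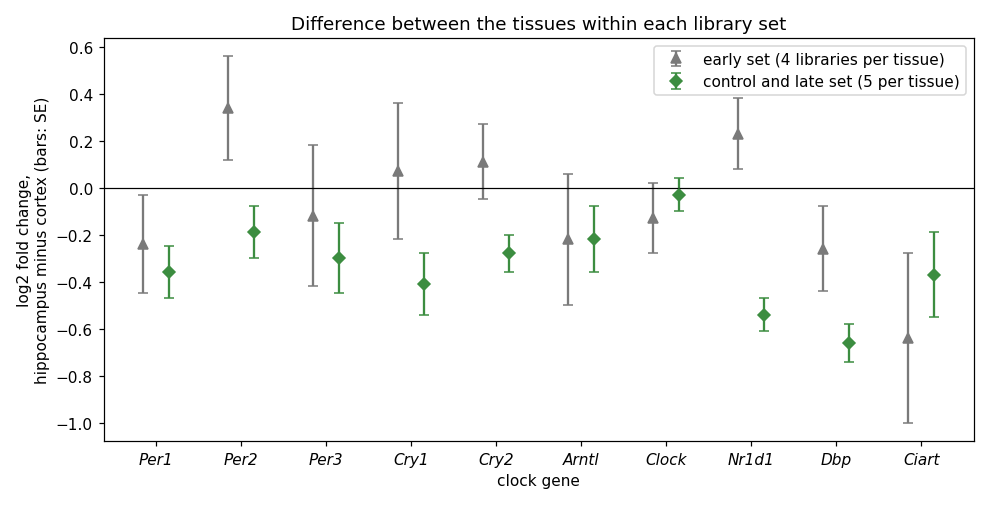
Log2 fold change of each clock gene, hippocampus minus cortex, within the early set (triangles, 4 libraries per tissue) and the control and late set (diamonds, 5 per tissue), with bars of 1 SE. Nr1d1 lies at -0.54 in the control and late set and at 0.23 in the early set, and Dbp at -0.66 and -0.26.

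Of 25 further clock genes, 23 or 24 passed the filter. Between the tissues 8 of 24 were lower in hippocampus and 1 higher, beside 9.26% and 7.6% of all genes. The lower ones included the ROR activators of Arntl, Rorb (2.31-fold, -1.21 ± 0.10, adjusted p = 2.96e-07) and Rora (1.84-fold, -0.88 ± 0.11, adjusted p = 1.48e-05), and Npas2, which can replace Clock (-0.88 ± 0.20, adjusted p = 0.00532). Nr1d2, the paralogue of Nr1d1 (-0.41), the PAR bZIP factor Hlf (-0.53), Bhlhe40 (-0.34), the kinase gene Csnk1e (-0.25) and the cell cycle kinase gene Wee1 (-0.41) completed them, and Lonrf3 was higher (0.54). Rorb is also one of the cortical neuron markers used above.

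Between the sets 6 of 23 of these genes were called, 3 lower and 3 higher in the early set, a smaller share than the 39.6% of all genes. Arntl2, a paralogue of Arntl, was 3.2-fold lower (-1.68 ± 0.27, adjusted p = 2.64e-05), from 0.662 to 3.09 CPM in the early libraries and 3.44 to 9.3 CPM in the others, without overlap in either tissue. Its counts were 5 to 24 in the early set. The kinase gene Csnk1d (-0.37), whose product marks PER proteins for degradation, and the clock-driven protease gene Usp2 (-0.32) were also lower, and Gsk3b (0.35), Wee1 (0.33) and Nampt (0.28) were higher. In cortex, where 26.6% of all genes were called, 6 of 23 were lower and none higher. They were Arntl2, Csnk1d (-0.56), Usp2 (-0.47), Bhlhe41 (-0.43), Timeless (-0.96) and Tef (-0.45 ± 0.10, adjusted p = 0.00151), a PAR bZIP factor like Dbp. In hippocampus, where 24.8% of all genes were called, Arntl2 was lower (-1.89) and Gsk3b higher (0.45).

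A contrast of phases was computed per library as a description, the mean log2 CPM of Nr1d1, Dbp, Ciart and the 3 Per genes minus that of Arntl, Clock, Npas2 and Cry1, each centred on its tissue mean. In hippocampus it was 0.10 in control, -0.21, -0.27, -0.16 and -0.00 from 3 days to 3 weeks, and 0.34, 0.13, 0.09 and -0.01 from 8 to 20 weeks. In cortex it was 0.45, then -0.46, -0.54, -0.05 and -0.13, then 0.45, 0.07, 0.03 and 0.18. The 3-day and 5-day libraries were the lowest and the 8-week libraries the highest in both tissues, level with control in cortex. Without the Per genes the cortical values were 0.25 in control, -0.45, -0.33, 0.12 and 0.06 in the early set and 0.41, -0.02, -0.03 and -0.00 later. The hippocampal values were then 0.00, -0.08, 0.03, -0.18, 0.19, 0.23, -0.10, -0.08 and -0.02. The 8-week libraries thus stayed the highest in both tissues, and the early cortex libraries, which all lay under the others with the Per genes included, overlapped them.

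**Figure D5:**
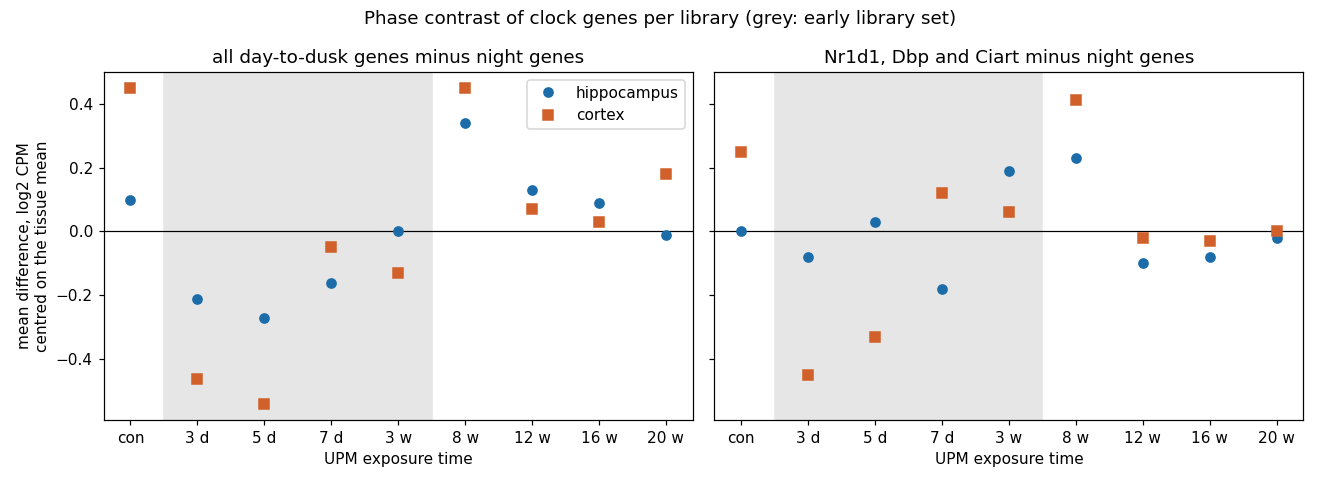
Phase contrast per library (vertical axis, mean log2 CPM difference centred on the tissue mean) against exposure time, with all 6 day-to-dusk genes (left) and without the Per genes (right), for hippocampus (circles) and cortex (squares), early set on grey. At left the early libraries lie between -0.54 and -0.00 and the 8-week libraries at 0.34 and 0.45, and at right the early libraries spread from -0.45 to 0.19.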

How the data were processed

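Gene expression was measured with 18 QuantSeq 3' mRNA libraries (oligo-dT primed, single-end 75 bp reads) of pooled mouse RNA. The deposited values are raw counts per gene symbol, per the file headers, and the submitters' processing notes name Bowtie2, bedtools, edgeR and mm10, with versions, annotation and strand setting not given in the sources used here. In 2 files, 27 symbols each appeared as calendar dates and were set back to gene symbols. Repeated symbols were summed, which left 23238 from 23282 lines.

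Counts were fitted over all genes with edgeR 4.0.16 in R 4.3.3 (TMM scaling, filterByExpr, quasi-likelihood F test, Benjamini-Hochberg adjustment over all genes tested, called at 0.05). CPM are counts scaled to 1000000 per library after TMM, and log2 CPM for likeness and contrasts used a prior count of 2. Hippocampus against cortex had exposure time as a factor. Set differences in 1 tissue and the set by tissue term came from tissue, set and their interaction over all 18 libraries, without exposure time. The other comparisons had tissue as a covariate. The SE given with an edgeR log2 fold change was the absolute change divided by the square root of its F statistic. Both tissues of a time may come from the same mice, which the labels do not state. Scripts were tested on simulated data, where joint tests of all times made more false calls than their nominal rate. DESeq2 1.42.0, limma 3.58.1, other scalings and filters, and leaving out each library in turn served as alternatives. The comparison between library sets and its omissions were added after the data had been seen. Positions are from GENCODE M21. The members and gene lists were chosen with earlier results of these data known. The text names the 10 members, the other clock genes past the threshold, and the genes most and least like Dbp or most like Arntl, of which 1 is not reported here.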

Additional observations from a re-analysis of the deposited data

Results flagged for a closer look

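Long-term values of 1 clock gene in 1 tissue formed 20 groups (5 libraries each). Of these, 5 held a library far from the rest by Dixon's test at the 95% level. The nominal rate of about 1 in 20 is no measure for this count, since groups of a tissue share their libraries. Each group joins the 3-week library of the early set with 4 libraries of the control and late set. Arntl in cortex was lowest at 8 weeks, at 8.74 CPM. Clock in cortex was highest at 3 weeks, at 124 CPM, the only one of these values from the early set. Cry1 in hippocampus was highest at 16 weeks, at 15.5 CPM. Cry2 in hippocampus was lowest at 8 weeks, at 42 CPM, and Ciart in hippocampus was lowest at 12 weeks, at 4.43 CPM. None of these genes passed a test between exposure times.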

How the results depend on the processing

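The count of members called moved with the processing as follows, and the causes were not tested. Between any times it was 1, and 2 with DESeq2, with a mean of at least 50 counts or with no filter, 3 with total counts alone and 1 to 2 when single libraries were left out. Between sets it was 3, and 5 with total counts alone and 3 to 4 with single libraries left out. In cortex it was 4, and 5 with DESeq2, RLE size factors, a mean of at least 50 counts or total counts and 3 to 5 with single libraries left out. In hippocampus it was 1, 3 with total counts and 1 to 2 with single libraries left out, where Cry2 was added without the 5-day hippocampus library (0.34, adjusted p = 0.049). Between tissues it was 1, but 5 in the control and late set, 0 in the early set and 1 to 2 with single libraries left out. Long-term against short-term it was 3, but 0 with the set as a term, where Per3 turned to -0.22, 4 with DESeq2, a mean of at least 50 counts or total counts, and 1 to 4 with single libraries left out. The lowest, 1, came without the 5-day cortex library, where Per1 (0.36, adjusted p = 0.109) and Per2 (0.51, adjusted p = 0.0638) were lost. Per1 there was 0.35 to 0.55 over all omissions. Short-term against control it was 0, but 2 with DESeq2 or total counts and 0 to 2 with single libraries left out, and for the set by tissue term 0, but 1 with DESeq2 and 0 to 1 with single libraries left out.

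Counts over all genes moved by over 1.5 times in these cases. Between any times 2335 became 3582 with DESeq2. Within the control and late set 19 became 130 (DESeq2), 216 (no filter) and 8 (mean of at least 50 counts), and 10 to 102 with single libraries left out. Within the early set 7 became 84 (DESeq2), 222 (no filter) and 13 (total counts), and 2 to 143 with single libraries left out. Short-term against control 288 became 963 (DESeq2) and 803 (total counts), 0 without the control of either tissue or the 5-day cortex library, and up to 1169 without the 3-week cortex library. Long-term against short-term 2478 became 1 with the set as a term, and 1511 to 3779 with single libraries left out. The tissue comparison fell from 2507 to 656 in the early set, the interaction rose from 0 to 103 with DESeq2, and 3 weeks against 3 to 7 days from 0 to 8 (DESeq2) and 11 (no filter). Total counts alone moved the balance between tissues from 1130 higher and 1377 lower to 1446 and 982, and long-term against short-term from 1346 and 1132 to 2306 and 490, with the median of all genes at 0.16.

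The labels number no replicates. With exposure time as a replicate block (limma), members called were 3 for long-term against short-term (2224 genes in all), 0 for short-term against control (0 genes) and 0 for long-term against control (0 genes). With no replicate block, the tissue comparison called 1 member and 2568 genes. No replicate block was fitted for the comparison between sets or for the set by tissue term. Ciart, Arntl, Cry1 and Per3 had the fewest counts, and how small a difference could be seen in them at this depth was not tested.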
